A study of Mus musculus with 6 samples.

Results

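Integrins are the receptors that hold a cell to the matrix around it, and focal adhesion proteins join them to actin. The genes described here are 41 integrin subunit, focal adhesion and linker genes, chosen by name from the 49315 genes of the count table. They were measured in heart tissue of adult mice that had received Angiotensin II, a peptide hormone that constricts vessels and raises blood pressure, for 28 days at 1.0 mg/kg/day from osmotic minipumps. Mid-ventricular tissue was taken from 3 mice labelled wild type (WT) and 3 labelled TET2KO, a knockout of Tet2 specific to endothelial cells. Tet2 encodes a dioxygenase that oxidises 5-methylcytosine in DNA. Every animal of both groups received Angiotensin II, so the infusion itself has no comparison here. The sources used here do not name the promoter that restricts the deletion, the deleted exons, or the sex and exact age of the mice.

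An integrin is a pair of 1 alpha and 1 beta subunit. The alpha subunit sets most of the choice of ligand, among laminins, collagens and proteins with an RGD motif, and the beta tail carries the link to the cell. Talin and kindlin bind that tail and switch the receptor on. Behind them sit the complex of ILK, PINCH and parvin, the actin linkers vinculin, filamin, alpha-actinin and tensin, and the kinase and scaffold layer of FAK, Src, p130Cas and paxillin. In heart muscle these proteins form the costameres, which tie the Z-discs to the laminin of the basement membrane, and the partner of beta1 there is mostly alpha7.

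The libraries held 22124844 to 30418909 reads, and p-values measure the spread between 3 mice a group. Tet2, the targeted gene, went against the labels: it had 89, 106 and 55 reads in the libraries labelled WT and 542, 240 and 326 in those labelled TET2KO (log2 fold change 1.49 ± 0.29, SE). With the trend on transcript length and GC described next taken out, its difference was 0.27 ± 0.17 and did not pass (adjusted p = 0.21). These are reads over the whole gene, and the deleted exons are not known here. Every direction below is therefore that of the labels. All 10 cardiomyocyte markers were detected in every library, with a summed level, in read counts per 1e6 scaled by TMM factors (CPM), of 95272 to 115750 in WT and 60611 to 69384 in TET2KO. Of these markers 4 were higher and 5 lower, where 33.4% and 29.4% of all genes tested were. With the trend on length and GC taken out, 5 were higher and 2 lower, against 21.9% and 24.3% of all genes. As counted, Myl2 (-1.64), Myl3 (-1.37), Tnni3 (-0.94), Mb (-0.78) and Pln (-0.74) were lower. Myh6 (3.45), Ttn (2.47), Ryr2 (2.33) and Actc1 (0.66) were higher. Fold changes of all genes followed transcript length (Spearman's rho = 0.61 over 14341 genes, which are not independent). For this reason fold changes are set beside values from a fit that takes out the trend on length and GC (called trend-removed). The replicate labelled TET2KO 2 stood apart, correlating more closely with WT replicate 2 (r = 0.968 over log2 CPM) than with TET2KO replicate 1 (0.928). Under scaling by total reads in place of TMM, the all-gene median log2 fold change was 0.47 rather than 0.05.

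Most of the adhesion genes were higher in the libraries labelled TET2KO. Of the 41, 39 passed the filter on low counts, and 26 of these rose, 1 fell and 12 missed the threshold of an adjusted p under 0.05. That is 66.7% higher, where 33.4% of all 14370 genes tested were higher and 29.4% lower (62.9% called in all). The median log2 fold change was 1.30, against 0.05 over all genes tested. In the authors' deposited table, 29 of the 41 were higher and 1 lower, where 33.6% of its genes were higher and 31.4% lower. In the trend-removed fit 16 passed upward and 5 downward, against 21.9% and 24.3% of all genes (46.2% called in all), and the median was 0.23. The 2 genes that failed the filter, Itgb4 and Itgb7, had at most 3 reads in any WT library. Itgal and Src reached the minimum of that filter in every TET2KO library but not in every WT library. In CPM the groups did not overlap in 30 of the 39 (76.9%), near the 73.5% of all genes tested. Without TET2KO replicate 2, 32 of the same 39 were higher and 1 lower, and 34 with Itgb4 (3.40) and Itgb7 (2.57), which then passed the filter, against 39.8% and 35.3% of all genes (75.1% called in all).

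**Figure D1:**
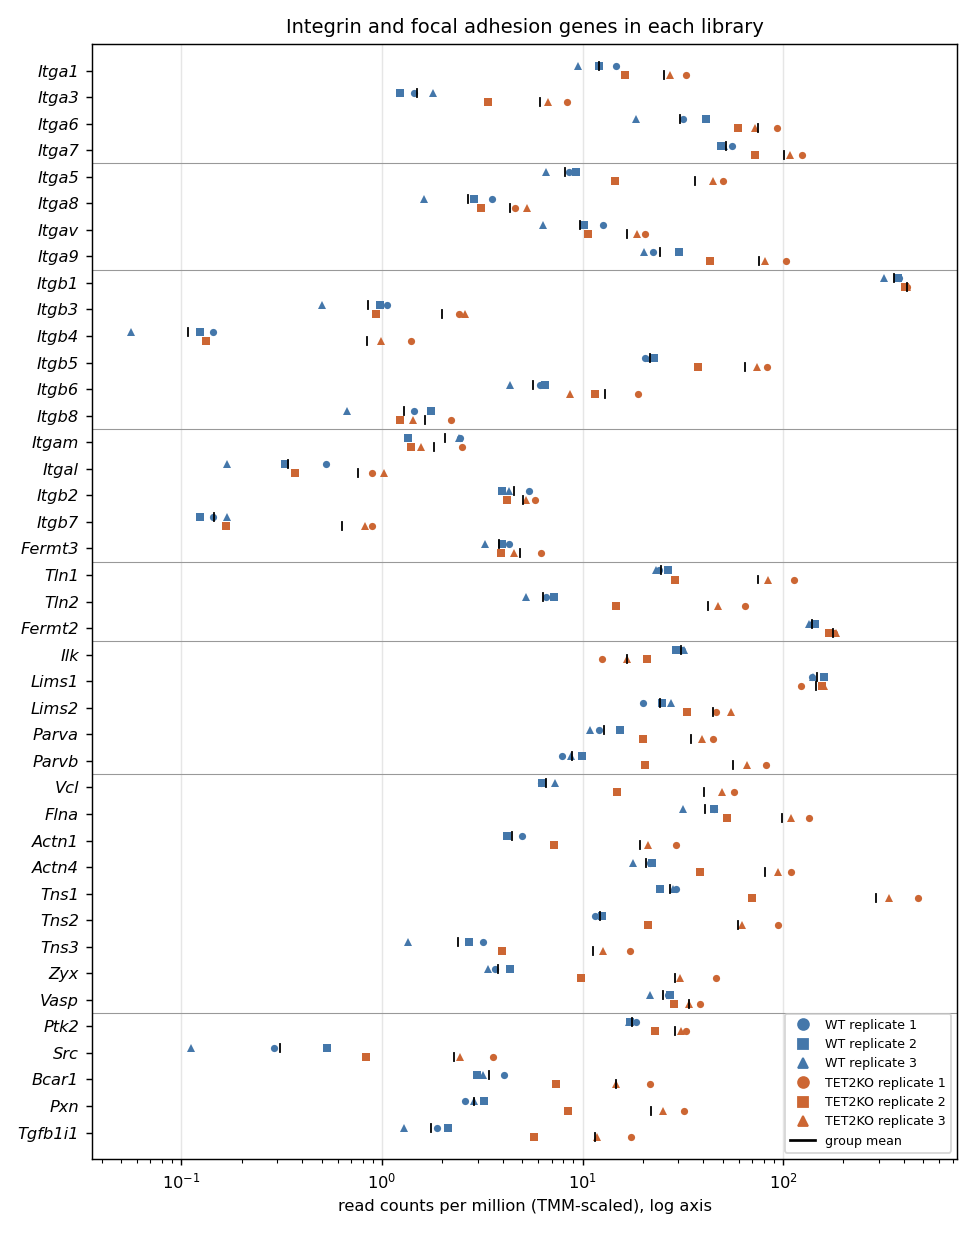
TMM-scaled CPM (log axis) of the 41 genes in each library, grouped by role, with WT in blue, TET2KO in orange, a marker shape for each replicate number and a tick at each group mean. Tns1 has the largest fold difference between group means, with 24.3 to 29.3 CPM in WT and 70.0 to 471 CPM in TET2KO. The Lims1 libraries of both groups overlap.

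Promoters were searched for the CArG box, the element bound by serum response factor, because this factor is a textbook regulator of actin linker genes such as vinculin. RefSeq windows from 250 bases before to 50 after a start (GRCm38.p6) were found for 29 of the 41 genes, and both strands were searched. A CArG box occurred in 3 of the 29, Vcl, Itgb6 and Fermt2, and in 1.81% of the 27025 genes with a window. Of these, Vcl and Itgb6 were called higher both as counted and with the trend removed. Fermt2 did not pass as counted and was higher with the trend removed. Over all genes tested, 33.4% were higher as counted and 21.9% with the trend removed. The stretches that hold the CArG box are shown 5′ to 3′ on the gene's strand, with the box in capitals. That of Vcl is chr14:20929148-20929225 (plus strand), with the box starting 227 bases before the start. That of Fermt2 is chr14:45530215-45530314 (minus strand), 204 bases before. That of Itgb6 is chr2:60673694-60673788 (minus strand), 50 bases before the more downstream of its 2 RefSeq starts.
Vcl: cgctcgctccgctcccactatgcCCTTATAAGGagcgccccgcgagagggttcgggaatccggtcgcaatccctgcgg
Fermt2: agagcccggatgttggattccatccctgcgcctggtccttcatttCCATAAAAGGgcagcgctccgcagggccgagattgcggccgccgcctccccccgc
Itgb6: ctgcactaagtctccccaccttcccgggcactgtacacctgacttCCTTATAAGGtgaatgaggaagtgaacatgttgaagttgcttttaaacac
Vcl and Itgb6 carry the same 10 letters, and the box of Fermt2 differs inside its run of A and T. A match is only a match of letters in this window. The letters AGAGGAAG, a core bound by PU.1 of blood cells, were found in 1 of the 29, Itgav, and in 5.22% of all genes with a window.

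The integrin subunits themselves are described first. Itgb1 (chr8:128685654-128733200, plus strand, GRCm38, as for all genes below) encodes the beta1 chain, the common partner of most alpha subunits. It was the most abundant of the 41 genes per length, at 139 ± 22.1 TPM (a length-scaled share of transcripts, mean ± SD, n = 3) in WT and 248 ± 26.9 TPM in TET2KO. In CPM it stood at 380, 373 and 319 in WT and 416, 406 and 417 in TET2KO. The groups did not overlap, but the difference did not pass the test (log2 fold change 0.21 ± 0.17, adjusted p = 0.31). It passed when scaled by total reads (0.63) and on TPM values (0.84), and the trend-removed value was 0.20 ± 0.11.

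Itga7 (chr10:128933818-128958282, plus strand) encodes the laminin-binding alpha7 chain of muscle. Its levels were 55.7, 48.9 and 50.6 CPM in WT, against 124, 72.0 and 108 CPM in TET2KO, with no overlap. The rise as counted (0.97 ± 0.22, adjusted p = 0.0083) turned into a fall with the trend removed (-0.63 ± 0.15, past the test). The other laminin and collagen receptors also rose as counted. Itga6, of the alpha6 laminin receptor, rose by 1.30 ± 0.31 and kept 0.69 ± 0.23 with the trend removed. Itga3, another laminin receptor chain, rose by 2.06 ± 0.38 from 1.49 ± 0.286 CPM, and Itga1, the collagen receptor chain, by 1.07 ± 0.29. After trend removal they stood at 0.13 ± 0.22 and 0.03 ± 0.14, neither past the test. The Itga1 call was also lost when WT replicate 3 was left out (0.91).

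Among the subunits for RGD and related ligands, Itga5, the fibronectin receptor chain, stood at 8.59, 9.32 and 6.55 CPM in WT, against 50.4, 14.5 and 44.6 CPM in TET2KO. TET2KO replicate 2 lay nearest to WT, still above it (log2 fold change 2.16 ± 0.44, adjusted p = 0.0066). Itga9, which pairs with beta1 and binds tenascin and osteopontin, rose by 1.65 ± 0.33. With the trend removed, Itga5 stood at 0.33 ± 0.18 and Itga9 at -0.01 ± 0.14, neither past the test. Itgav and Itga8, whose products bind vitronectin and nephronectin among others, did not pass as counted (0.77 ± 0.33 and 0.69 ± 0.35). Both passed without TET2KO replicate 2, where Itgav stood at 1.02 and Itga8 at 0.89. No member of this group of 4 passed in either direction after trend removal, where 46.2% of all genes did.

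The remaining beta chains are partners of alphav, apart from beta4, the alpha6 partner of epithelial hemidesmosomes. Itgb5 (chr16:33829665-33949338, plus strand) held 20.5, 22.7 and 21.6 CPM in WT, against 83.0, 37.6 and 73.9 CPM in TET2KO. The groups were apart by more than their spread (1.58 ± 0.29, adjusted p = 0.0065, trend-removed 0.36 ± 0.12, past the test). Itgb6, which activates latent TGF-beta together with alphav, rose by 1.20 ± 0.32, and its trend-removed value of 0.93 ± 0.26 passed too. Leaving out WT replicate 3 ended the call (1.04). It was the only 1 of the 26 higher genes whose lowest TET2KO library was not replicate 2. Itgb3, the chain of the platelet and endothelial receptors, did not pass (1.22 ± 0.47, adjusted p = 0.052). Its trend-removed value was -0.27 ± 0.32. It passed without TET2KO replicate 2 (1.56) and in the authors' deposited table, where its log2 fold change is 1.16. Itgb8, an activator of latent TGF-beta with alphav, stood at 1.29 ± 0.558 CPM in WT, against 1.63 ± 0.518 in TET2KO (0.32 ± 0.41, trend-removed -0.22 ± 0.32). Itgb4 had 3, 3 and 1 reads in WT and 52, 4 and 31 in TET2KO, so replicate 2 resembled WT.

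Subunit pools were summed from TPM, a choice made after the values were seen. The 8 alpha subunits outside leukocyte integrins summed to 41.3, 45.3 and 31.3 TPM in WT and 204, 85.2 and 154 TPM in TET2KO. Itgb1 stood at 3.50, 3.46 and 3.64 times that sum in WT and at 1.35, 2.61 and 1.60 times in TET2KO. Beta1 transcript thus exceeded the alpha pool in every library, by less in each TET2KO library than in any WT one. Itga7 was the most abundant alpha transcript in all 6 libraries, at 46.2 to 58.7% of the pool in WT and 40.9 to 47.0% in TET2KO, so the groups overlap. The share of Itga5 was 6.87 to 7.95% in WT and 8.56 to 15.7% in TET2KO. On the beta side, Itgb5 took 6.80 ± 0.719% of the TPM of 6 chains in WT and 15.5 ± 4.84% in TET2KO, and Itgb1 took 92.1 ± 0.591 and 82.6 ± 5.18%. No trend on length and GC was taken out of these pools. As TPM ratios, the log2 difference was 0.72 for Itga7 to Itgb1 and -1.29 for Itgb1 to Itgb5. Between trend-removed fold changes it was -0.84 and -0.15. Itga5 to Itga7 moved little, from 1.05 to 0.96.

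Integrins of white blood cells that passed the low-count filter showed no called difference as counted. Itgam, Itgal, Itgb2 and Itgb7 were taken with Fermt3, which encodes kindlin-3 of blood cells, and 4 of them were tested. By edgeR's quasi-likelihood test as counted 0 were higher and 0 lower, where 33.4% and 29.4% of all genes tested were. Of these 4, 0 had an unadjusted p under 0.05, and 0 passed by DESeq2. Itgal, the alpha chain of LFA-1, had the largest difference, 1.13 ± 0.54 (trend-removed -0.33 ± 0.44). Itgb7, the untested beta7 chain of gut-homing lymphocytes, had 3, 3 and 3 reads in WT and 33, 5 and 26 in TET2KO. It is called higher in the authors' deposited table (log2 fold change 2.07, adjusted p = 0.027), and it passed here without TET2KO replicate 2 (2.57). Itgb2, the common beta2 chain, stood at 5.38, 3.97 and 4.31 CPM in WT, against 5.77, 4.20 and 5.24 CPM in TET2KO, overlapping (0.16 ± 0.24, trend-removed -0.28 ± 0.19). Itgam, the alpha chain of Mac-1, stood at 2.07 ± 0.623 CPM in WT and 1.82 ± 0.600 in TET2KO (-0.17 ± 0.36), with a trend-removed value of -0.93 ± 0.31 that passed. Its symbol has a second row with 0 to 5 reads, and 68.67% of its exon bases are shared with the same-strand gene Gm49368, so its counts are uncertain. Fermt3 stood at 0.34 ± 0.26 (trend-removed -0.48 ± 0.19, not past), and Itgal without TET2KO replicate 2 at 1.46, past the test. On TPM values Itgb2 and Fermt3 passed (0.60 and 0.74). The summed level of 12 leukocyte markers was 578 to 698 CPM in WT, against 214 to 348 CPM in TET2KO, with none at 0 reads in any library. Of the 11 tested, 3 were higher and 4 lower. With the trend removed 3 were higher and 2 lower, against 21.9% and 24.3% of all genes. Lyz2 made up most of that sum, and Ptprc, the pan-leukocyte gene, did not differ beyond its spread (-0.10 ± 0.25). Their part in these values was not tested. In such bulk tissue, fewer cells of a type and less RNA per cell cannot be told apart.

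The integrin activators differed from each other. Talin-2 is the talin of the costameres of adult muscle, and talin-1 is the form found in nearly all cells. Tln2 (chr9:67217087-67559703, minus strand) stood at 6.58, 7.19 and 5.21 CPM in WT, against 64.5, 14.7 and 47.1 CPM in TET2KO. It rose by 2.73 ± 0.50 (adjusted p = 0.0065), and its trend-removed value of 0.64 ± 0.15 passed as well. Tln1 (chr4:43531519-43562691, minus strand) stood at 24.0, 26.7 and 23.2 CPM in WT, against 113, 28.8 and 83.9 CPM in TET2KO. It rose by 1.61 ± 0.44 as counted (adjusted p = 0.015), failed without WT replicate 1 (1.58) or WT replicate 3 (1.56), and turned to -0.68 ± 0.11, past the test, with the trend removed.

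Read as a ratio within each library, which no scaling of libraries can move, the talins separated the groups without an intermediate library. The log2 ratio of Tln1 to Tln2 TPM was 2.77, 2.79 and 3.06 in WT and 1.72, 1.88 and 1.74 in TET2KO. Tln1 remained the more abundant of the pair per length in every library, by 6.84 to 8.36-fold in WT and 3.29 to 3.67-fold in TET2KO. The difference of -1.10 had the smallest p that 3 against 3 libraries allow (exact permutation test, two-sided, p = 0.1, 0.15 adjusted over 12 pairs). It was -1.32 between the trend-removed fold changes. Kindlin-2, encoded by Fermt2, was the second most abundant of the 41 transcripts per length (58.9 ± 7.26 TPM in WT). It held 139, 145 and 134 CPM in WT, against 180, 170 and 183 CPM in TET2KO, without overlap. As counted it did not pass (0.35 ± 0.15, adjusted p = 0.076). It passed with the trend removed (0.43 ± 0.11), on total-read scaling (0.78) and without TET2KO replicate 2 (0.40).

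**Figure D2:**
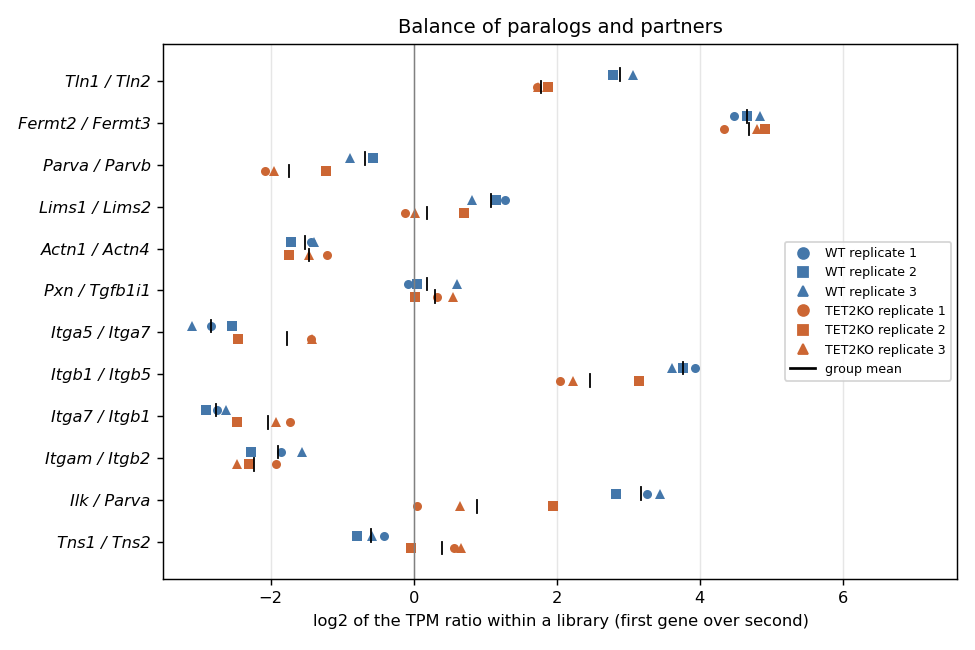
Log2 ratio of the TPM of paired genes within each library, first gene over second, with WT in blue, TET2KO in orange and a tick at each group mean. The ratio of Tln1 to Tln2 is 2.77 to 3.06 in WT and 1.72 to 1.88 in TET2KO, with TET2KO replicate 2 among its group. In Ilk to Parva and Itgb1 to Itgb5 that replicate lies between the groups.

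The complex of ILK, PINCH and parvin is built from 1 of each, and the genes for its parts went in different directions. Ilk (chr7:105736592-105742925, plus strand), for the pseudokinase at its centre, was the only 1 of the 41 genes lower as counted. It held 31.3, 29.3 and 32.0 CPM in WT, against 12.5, 20.9 and 16.6 CPM in TET2KO. It fell by 0.89 ± 0.21 on the log2 scale (-0.89, adjusted p = 0.0088) and stood at -0.72 ± 0.16, past the test, with the trend removed. The fall did not pass on total-read scaling (-0.47) or on TPM values (-0.27). In GENCODE, 76.75% of its exon bases also lie in exons of Taf10 on the opposite strand, and the strand setting of the counting is not given. Taf10 itself stood at -0.91 ± 0.20, so reads of Ilk and Taf10 cannot be told apart.

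Parvins link ILK to actin, and alpha-parvin is the broadly expressed form while beta-parvin is prominent in heart and skeletal muscle. Parvb (chr15:84232043-84315688, plus strand) stood at 7.87, 9.93 and 8.79 CPM in WT, against 82.4, 20.5 and 66.1 CPM in TET2KO. It rose by 2.67 ± 0.47 (adjusted p = 0.0065, trend-removed 1.32 ± 0.26). Parva rose by 1.44 ± 0.31 (adjusted p = 0.0071, trend-removed 0.71 ± 0.20). Both were called higher in the main fit and in all 18 alternatives. The log2 ratio of Parva to Parvb was -0.58, -0.57 and -0.89 in WT and -2.08, -1.23 and -1.95 in TET2KO (exact permutation p = 0.1, the smallest possible).

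PINCH-1 and PINCH-2, encoded by Lims1 and Lims2, are the alternative LIM adaptors of the complex. Lims1 was level, at 147 ± 11.3 CPM in WT, against 146 ± 20.5 CPM in TET2KO, overlapping (-0.01 ± 0.18, adjusted p = 0.97). Its sign turned on TPM values, where 0.61 passed. Lims2 held 19.9, 25.0 and 27.7 CPM in WT, against 46.5, 33.3 and 55.1 CPM in TET2KO (0.89 ± 0.23, adjusted p = 0.012, trend-removed 0.77 ± 0.18). Leaving out WT replicate 1 ended the call (0.76). Per length, Lims1 exceeded Lims2 in every WT library, with log2 TPM ratios of 1.28, 1.15 and 0.82. In TET2KO they were -0.13, 0.70 and 0.01, which is near equal amounts outside replicate 2 (exact permutation p = 0.1). The ratio of Ilk to Parva changed the most of the 12 pairs, from a mean log2 of 3.17 ± 0.32 to 0.88 ± 0.97, with the limit on Ilk above. That difference of -2.30 was -1.43 between the trend-removed fold changes, near the -1.32 of Tln1 to Tln2.

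The linkers that join the adhesion to actin rose in 8 of 9 cases, where 33.4% of all genes tested were higher, with a median of 2.22. After trend removal 5 were higher and 1 lower, against 21.9% and 24.3% of all genes, with a median of 0.64. Tns1 (chr1:73910231-74124449, minus strand) encodes tensin-1, which binds both beta tails and actin. It held 29.3, 24.3 and 28.2 CPM in WT, against 471, 70.0 and 336 CPM in TET2KO. This was the largest fold change among the 41 (3.42 ± 0.62, adjusted p = 0.0065), and the trend-removed value was 1.02 ± 0.18. Tns2 and Tns3, its paralogs, rose by 2.28 ± 0.47 and 2.22 ± 0.55, but neither passed with the trend removed (0.16 ± 0.15 and 0.28 ± 0.26). The log2 ratio of Tns1 to Tns2 was -0.42, -0.80 and -0.59 in WT and 0.56, -0.04 and 0.66 in TET2KO.

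Vinculin, whose gene holds the CArG box shown above, locks onto stretched talin and recruits actin. Vcl (chr14:20929398-21033676, plus strand) stood at 6.24, 6.25 and 7.28 CPM in WT, against 57.1, 14.9 and 49.3 CPM in TET2KO. The WT values lay close together and all TET2KO values above them (2.62 ± 0.46, adjusted p = 0.0065, trend-removed 1.63 ± 0.32). Of its exon bases, 25.52% lie in exons of Ap3m1 on the other strand, a gene that stood at -0.31 ± 0.14. Zyxin moves onto actin fibres under strain. Zyx (chr6:42349630-42360213, plus strand) held 3.65, 4.33 and 3.36 CPM in WT, against 46.2, 9.77 and 30.6 CPM in TET2KO (2.93 ± 0.52, adjusted p = 0.0065, trend-removed 1.73 ± 0.33).

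The non-muscle alpha-actinins, which crosslink actin, rose together. Actn1 rose by 2.11 ± 0.47 and Actn4 by 1.97 ± 0.37, with trend-removed values of 1.21 ± 0.33 and 0.64 ± 0.17, each past the test. Their ratio was level: the log2 of Actn1 over Actn4 TPM was -1.52 ± 0.18 in WT and -1.47 ± 0.27 in TET2KO (exact permutation p = 1). Filamin A crosslinks actin and competes with talin for the beta tail. Flna stood at 45.3, 45.4 and 31.6 CPM in WT, against 134, 52.4 and 109 CPM in TET2KO (1.27 ± 0.34, adjusted p = 0.014). It turned to -0.71 ± 0.17, past the test, with the trend removed, and leaving out WT replicate 3 ended the call (1.10). Vasp, the actin polymerisation factor carried by zyxin, was the linker that did not pass (0.42 ± 0.18, adjusted p = 0.067, trend-removed -0.08 ± 0.13), though it did without TET2KO replicate 2 (0.55).

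All 5 kinase and scaffold genes were higher as counted, where 33.4% of all genes tested were. With the trend removed 3 of the 5 were higher, against 21.9% of all genes. Paxillin docks FAK, vinculin and ILK. Pxn (chr5:115506676-115555987, plus strand) stood at 2.59, 3.23 and 2.86 CPM in WT, against 31.9, 8.47 and 25.3 CPM in TET2KO (2.92 ± 0.47, adjusted p = 0.0065, trend-removed 1.27 ± 0.22). Tgfb1i1 (chr7:128246812-128255699, plus strand) encodes Hic-5, the paxillin paralog induced by TGF-beta. It held 1.87, 2.13 and 1.29 CPM in WT, against 17.4, 5.70 and 11.8 CPM in TET2KO (2.71 ± 0.44, adjusted p = 0.0065). Its trend-removed value, 2.11 ± 0.33, was the largest of the 39. Per length both scaffolds stood at like levels, with a log2 ratio of 0.19 ± 0.36 in WT and 0.29 ± 0.27 in TET2KO (exact permutation p = 0.8).

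Bcar1, for the stretch-sensing scaffold p130Cas, rose by 2.09 ± 0.40 (trend-removed 0.58 ± 0.20, past the test). Ptk2, for the focal adhesion kinase FAK, showed a smaller rise, from 17.6 ± 0.851 CPM in WT to 28.9 ± 5.28 CPM in TET2KO, with no overlap (0.72 ± 0.18, adjusted p = 0.011). It did not pass with the trend removed (0.07 ± 0.12) or without WT replicate 3 (0.69). Src, the kinase that acts with FAK, had 6, 13 and 2 reads in WT and 132, 25 and 77 in TET2KO. Its rise as counted (2.81 ± 0.67, adjusted p = 0.0095) rests on few WT reads, moved to 3.44 without WT replicate 2, and did not pass with the trend removed (0.94 ± 0.44).

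**Figure D3:**
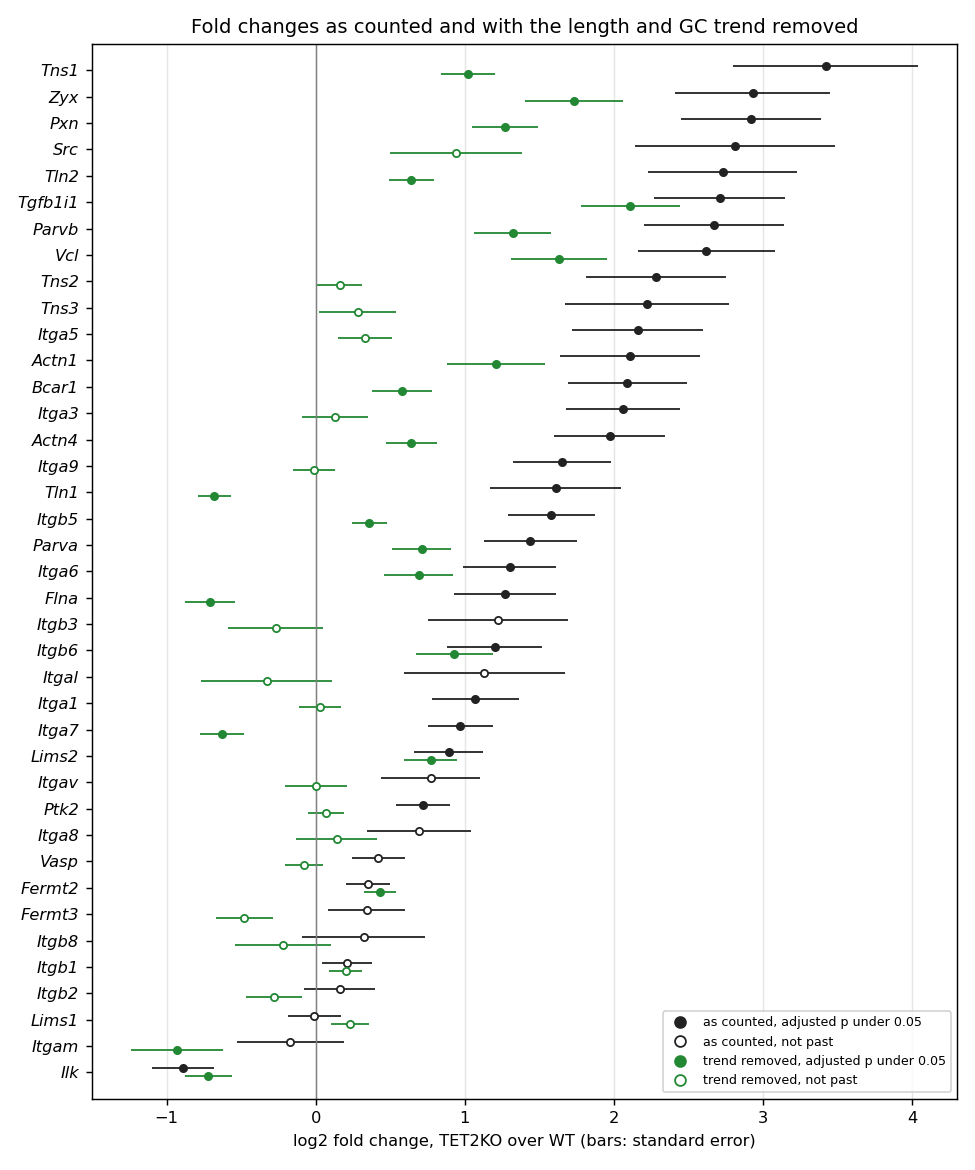
Log2 fold change of TET2KO over WT (bars, standard error) for the 39 tested genes, as counted in black and with the length and GC trend removed in green; filled points have an adjusted p under 0.05. Black points run from -0.89 (Ilk) to 3.42 (Tns1), and green points from -0.93 (Itgam) to 2.11 (Tgfb1i1).

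A set of 11 genes was called higher in the main fit and under each of the 18 alternatives: Tln2, Parva, Parvb, Vcl, Actn1, Actn4, Tns1, Zyx, Bcar1, Pxn and Tgfb1i1. They are 28.2% of the 39 tested, where 11.4% of all genes tested were called higher in every one of these fits. None of them is an integrin subunit, though Itga6, Itgb5 and Itgb6 each kept the call in 17 of the 18 alternatives. Itga6 lost it in the trend-removed fit without TET2KO replicate 2. Itgb5 lost it in the trend-removed fit with a term for replicate number, and Itgb6 without WT replicate 3. Of the 26 genes higher as counted, 15 (57.7%) stayed higher after trend removal, where 49.1% of all genes called higher did, and Ilk was lower in both fits. Fermt2 was added to the higher genes. Itga7, Tln1 and Flna changed from higher to lower, and Itgam was added to the lower ones. TET2KO replicate 2 was the lowest TET2KO library in 25 of the 26 higher genes (96.2%), as in 96.0% of all genes called higher.

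The transcripts of these genes are long, 35 of 41 above the median of 2996 nt over all genes tested, from 1795 nt in Ilk to 12132 nt in Tln2. Among the 39 tested, the fold change followed length only weakly (Spearman's rho = 0.17, a description over genes of the same libraries). It followed GC content somewhat more (0.44). For trend-removed values rho with length was -0.19. Because most of the list lies above the median length, 0.17 cannot show whether length moved the list as a whole. Over all genes with a known length the value was 0.61. The median of the 39 was 1.3 as counted and 0.23 with the trend removed. Genes of like length could lie far apart: Vcl, with 5267 nt, stood at 2.62, and Itgb3, with 5784 nt, at 1.22 and not past the test. Their trend-removed values were 1.63 and -0.27. Lims1 and Itga5, with 4327 and 4382 nt, stood at -0.01 and 2.16, but their GC contents were 40.7 and 57.5%, and with length and GC both taken out they stood at 0.23 and 0.33. The talins, both long, kept the difference between them after trend removal.

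**Figure D4:**
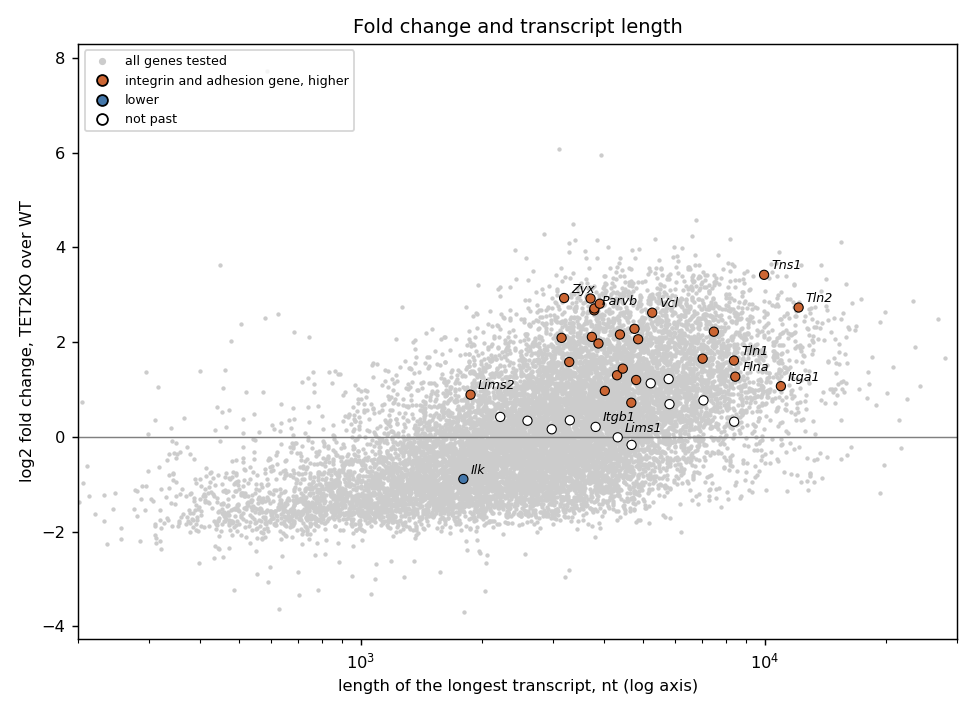
Log2 fold change of TET2KO over WT against the length of the longest transcript (log axis), with all genes tested in grey and the 39 adhesion genes in orange (higher), blue (lower) or white (not past). The grey cloud climbs with length, and most adhesion genes lie in its right part, above 2996 nt, the median of all genes tested.

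A wider list of 82 other genes of integrin adhesion was compared in the same fit. Among the 76 tested, 44 rose, 16 fell and the other 16 missed the threshold, with a median of 1.00. These are 57.9% and 21.1%, against 33.4% and 29.4% of all genes tested. The trend-removed fit called 29 upward (38.2%) and 21 downward (27.6%), with a median of 0.11, against 21.9% and 24.3% of all genes, so the share lower was near that of all genes. The list overlaps in function with the 41 genes and was drawn up with earlier results known. Among 22 adaptor and signalling genes, 14 were higher and 4 lower (63.6 and 18.2%), and 11 and 4 after trend removal. Git1, a scaffold that binds paxillin, rose by 3.16 ± 0.52, and its partner Arhgef7 (beta-PIX) by 2.38 ± 0.41. Crkl, an adaptor of p130Cas, rose by 2.31 ± 0.33, and Rapgef1, the exchange factor for Rap1 that Crk proteins bring in, by 2.83 ± 0.47. After trend removal each of these 4 still passed, from 0.70 ± 0.12 (Rapgef1) upward, with 1.47 ± 0.20 for Crkl and 1.14 ± 0.22 for Arhgef7.

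Among 21 tested actin and LIM partners, 13 were higher and 6 lower (61.9 and 28.6%), the share lower being near the 29.4% of all genes tested. After trend removal 8 were higher and 7 lower (38.1 and 33.3%, against 21.9% and 24.3% of all genes), with a median of -0.03. Sorbs3, for the vinculin-binding adaptor vinexin, rose by 2.20 ± 0.40 (trend-removed 0.89 ± 0.21). Fblim1, for migfilin, rose by 1.82 ± 0.30 (1.36 ± 0.21). Csrp3, the muscle LIM protein of the Z-disc, fell from 5901 ± 354 to 2094 ± 671 CPM (-1.49 ± 0.28, trend-removed -0.42 ± 0.12).

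Of 12 regulators of integrin activation 5 were higher and 5 lower (41.7% each, against 33.4% and 29.4% of all genes tested). After trend removal 4 were higher and 5 lower (33.3 and 41.7%, against 21.9% and 24.3% of all genes). Itgb1bp2, for melusin, the muscle chaperone that binds the beta1 tail, fell from 450 ± 37.2 to 198 ± 56.3 CPM (-1.19 ± 0.24, trend-removed -0.37 ± 0.11, both past the test). Itgb1bp1, for ICAP-1, which blocks talin at the beta1 tail, fell from 179 ± 10.6 to 54.2 ± 28.9 CPM (-1.72 ± 0.35, trend-removed -1.13 ± 0.21). Cd47, the thrombospondin receptor that associates with beta3 integrin, fell by 1.10 ± 0.20 on the log2 scale (-1.31 ± 0.18). Kank1 and Kank2, which bind talin, rose by 1.92 ± 0.32 and 1.82 ± 0.33. Of this pair, Kank1 passed after trend removal (0.32 ± 0.12) and Kank2 did not (-0.11 ± 0.14). The trend-removed calls of Kank1 and Itgb1bp2 were lost when a term for replicate number was added.

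Of the 16 ligand genes, 11 were higher and 0 lower, with a median of 1.43 (68.8% higher, against 33.4% of all genes tested). After trend removal 6 were higher and 3 lower (37.5 and 18.8%, against 21.9% and 24.3% of all genes). Laminin gamma1 (Lamc1) rose by 2.76 ± 0.57 (trend-removed 0.71 ± 0.22) and Lamb2 by 2.21 ± 0.44 (-0.02 ± 0.11). Col1a1 and Col4a1 rose by 3.80 ± 0.77 and 3.09 ± 0.63, and without TET2KO replicate 1 they stood at 3.06 and 2.48. Their trend-removed values were 1.29 ± 0.35 and 0.68 ± 0.21, both past the test. Vtn, for vitronectin, rose from 16.7 ± 1.49 to 26.2 ± 3.43 CPM (0.65 ± 0.17, trend-removed 0.88 ± 0.16), a call lost when WT replicate 1 (0.57) or WT replicate 3 (0.65) was left out. Fn1, for fibronectin, was called at 1.62 ± 0.58 (adjusted p = 0.041). That call was lost without any 1 library other than TET2KO replicate 2, over a range of 1.17 to 1.92, and the trend-removed value was -0.48 ± 0.28.

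Of 8 other integrin subunits, 5 were tested, with 1 higher and 1 lower. Itga2b, the alphaIIb chain of platelets, fell from 2.60 ± 1.12 to 1.08 ± 0.165 CPM (-1.27 ± 0.37, trend-removed -2.60 ± 0.44). The call was lost on total-read scaling and on TPM values. Leaving out a library also ended it for WT replicate 1 (-0.93), WT replicate 2 (-1.30), TET2KO replicate 1 (-1.12) and TET2KO replicate 3 (-1.28). The 8 platelet markers, Itga2b among them, summed to 42.7 to 64.6 CPM in WT, against 16.4 to 22.6 CPM in TET2KO, most of it Pf4. Of the 5 tested 1 was higher and 3 lower, and with the trend removed 1 was higher and 1 lower. Pf4 stood at -1.33 (trend-removed -0.02, not past) and Gp1ba at 1.93 (trend-removed 1.81, past the test). The part of platelet content in the Itga2b value was not tested. Itga11, a collagen receptor chain of fibroblasts, was called at 2.23 ± 0.70, with 6, 6 and 10 reads in WT and 82, 12 and 76 in TET2KO. It reached the minimum of the low-count filter in every TET2KO library but not in every WT library. The call was lost on leaving out any 1 of the WT libraries, TET2KO replicate 1 or TET2KO replicate 3, over a range of 1.92 to 2.63, and with the trend removed (0.45 ± 0.51). Of 8 fibroblast markers 4 were higher and 3 lower, with a median of 0.83. Their summed level, most of it Dcn, was 1060 to 1187 CPM in WT, against 822 to 1029 CPM in TET2KO. Of 8 smooth muscle and pericyte markers 3 were higher and 2 lower, with a median of 0.82, and the sum, most of it Rgs5, was 2105 to 2259 CPM in WT, against 1205 to 1882 CPM in TET2KO. Of 10 endothelial markers 7 were higher and 3 lower, with a median of 1.33 and a sum of 551 to 600 CPM in WT, against 601 to 1005 CPM in TET2KO. With the trend removed, 2 fibroblast markers were higher and 1 lower, 2 and 3 of smooth muscle, and 5 and 1 of endothelium. Of 7 red cell markers all 5 tested were lower in both fits. The 7 summed to 1555 to 7038 CPM in WT, against 165 to 741 CPM in TET2KO. All 3 atrial markers tested were lower, and 1 with the trend removed. Of 3 Schwann and nerve markers 1 was higher and 2 lower, and 0 and 1 with the trend removed. Over all genes tested, 33.4% were higher and 29.4% lower, and 21.9% and 24.3% with the trend removed. What these marker shifts add to the adhesion genes was not tested.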

How the data were processed

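For 6 libraries the authors deposited read counts, not normalized, by Ensembl gene, and TPM values. The authors' deposited comparison table gives a log2 fold change, a p-value and its adjusted form for each gene, and a signal, the authors' counts divided by 1 size factor per library. Tools named in the submitters' processing notes are STAR 2.5.2b, Trimmomatic 0.36, Subread 1.5.2, featureCounts, and DESeq2, with the builds GRCm38 and mm10. The sources used here give neither the annotation release nor the strand setting.

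Counts were tested with edgeR 4.0.16 (R 4.3.3, quasi-likelihood, robust fit, TMM factors, filterByExpr, group as the only term, Benjamini-Hochberg adjustment over 14370 genes at 0.05). A standard error is the size of the log2 fold change divided by the root of the F statistic. Transcript length and GC content are those of the longest transcript in GENCODE M21 (GRCm38). Their trend was fitted in each library as a smooth surface (mgcv 1.9.3) and entered edgeR as offsets, so a true difference that tracks length or GC is lost too. Alternatives used DESeq2 1.42.0 and limma 3.58.1. Fits were run on simulated counts in which the changed genes were drawn without regard to length or GC. Such counts cannot show how trend removal acts on a list of long genes. Members and lists were chosen with earlier results of these data known. All members are accounted for. Of each wider list, up to 4 genes with the smallest p past the test were named, with Itgb1bp2, Itga2b, Fn1 and Vtn. A gene that this rule names is not reported here. Per-sample columns with no match to a sample numbered 0.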

Additional observations from a re-analysis of the deposited data

How the results depend on the processing

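Among 12 paralog and partner ratios none moved beyond its spread without any 1 library or on counts per kilobase. The 8 whose groups did not overlap also kept their sign. Of the others, Fermt2/Fermt3 (0.02), Actn1/Actn4 (0.05) and Pxn/Tgfb1i1 (0.11) changed sign when some single libraries were left out. With the trend removed Itga7/Itgb1 turned from 0.72 to -0.84 and Pxn/Tgfb1i1 from 0.11 to -0.84. Itgb1/Itgb5 then went from -1.29 to -0.15 and Fermt2/Fermt3 from 0.02 to 0.91. Counts moved by over 1.5 times under the length and GC trend, total-read scaling, TPM values and some left-out libraries. Total reads gave 6534 genes higher against 2270 lower, and log2(TPM + 1) 7166 against 1832. The count of adhesion genes higher (26) was 16 with the trend removed and 15 with the trend removed and the replicate block. The count lower (1) was 5, 5 and, without TET2KO replicate 2, 6 under these trend fits, and 0 on total reads and on log2(TPM + 1) and log2(TPM + 0.1). Leaving out 1 library gave 21 to 34 higher and 1 lower each time. The median of 1.30 was 1.71 on total reads, 1.96 on log2(TPM + 0.1), 0.23, 0.22 and 0.43 in the trend fits, and 1.14 to 1.73 without 1 library. Wider-list genes higher (44) numbered 29 and 27 with the trend removed, and 28 to 50 without 1 library, 28 without WT replicate 3. Those lower (16) numbered 10 on total reads, 9 on both TPM scales and 10 to 18 without 1 library, 10 without TET2KO replicate 3. Over all genes, 4806 higher became 7270 on log2(TPM + 0.1) and 3146 and 2743 with the trend removed, and 3370 to 5928 without 1 library. The 4231 lower became 1882 on log2(TPM + 0.1) and 2479 to 5250 without 1 library (2771 without WT replicate 3, 2479 without TET2KO replicate 3). The cause of these moves was not tested.

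Reversals of genes called in either fit came from trend removal and the TPM scales. With the trend removed, with the replicate block added, and without TET2KO replicate 2, Itga7 stood at -0.63, -0.65 and -0.80, Tln1 at -0.68, -0.68 and -0.70, Flna at -0.71, -0.71 and -0.84, Kank2 at -0.11, -0.10 and -0.17, and Fn1 at -0.48, -0.44 and -0.31. Lamb2 stood at -0.02 and -0.02 in the first pair, Itga9 at -0.01 and, without TET2KO replicate 2, -0.03, and Fermt3 there at -0.52. Of genes called in neither fit, Itgb3, Itgal, Itgb2, Itgb8, Vasp and Fermt3 also turned negative with the trend removed, and Lims1 turned positive (0.23). Lims1 stood at 0.61 and 0.62 on the TPM scales.

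Replicate numbers are shared by the groups but did not pair the libraries: deviations of same-numbered libraries correlated at 0.039, -0.231 and -0.013. With the replicate block 26 adhesion genes were higher and 1 lower, and all genes gave 4070 higher and 3548 lower. Low counts limit Itgb4, Itgb7, Itgal and Src.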
